A study of Mus musculus with 11 samples.

Results

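The 57 genes for the cysteine tRNA with anticodon GCA (CysGCA) are described here, out of 433 tRNA genes counted in the frontal lobe of the embryonic mouse brain. They were taken as all genes whose name ends in Cys with an anticodon, and every one of them is CysGCA. The small RNA libraries came from C57BL/6 embryos, with no treatment in the labels, which were either wild-type or Nsun2-/-, lacking the cytosine-5 RNA methyltransferase NSUN2. At E18.5 there were 4 wild-type and 4 Nsun2-/- samples. At E13.5 there were 1 wild-type and 2 Nsun2-/- samples, so genotypes at that stage rest on a single wild-type sample. The methods describe more than one Nsun2-deficient mouse line, and the labels do not say which was used for these libraries. Only tRNA reads were counted, so neither the loss of Nsun2 nor the tissue could be checked with marker genes. All positions are those of the count files, whose header names a tRNA annotation of mm9, while the methods name mm10 for the alignment. Which build the reads were aligned to was not resolved, and if it was not that of the annotation, the counts would not belong to the copies named here.

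A tRNA gene is transcribed by RNA polymerase III from promoter elements inside the gene itself. The transcript is trimmed, receives a CCA end and is charged with its amino acid, here cysteine, which the anticodon GCA places at the codons UGC and UGU. NSUN2 adds methyl groups to cytosines of many tRNAs, mainly next to the variable loop. Mammalian genomes hold many near-identical copies of such genes, often in clusters. By the methods, reads were retained when they matched 1 genomic position uniquely, which can leave copies of identical sequence without counts. A copy without counts can therefore be unused or not countable, and these cannot be told apart here. In bulk tissue, fewer cells of a type and less tRNA per cell cannot be told apart either. Each gene has 1 count per sample, so tRNA fragments and full-length tRNA are not separated in these counts.

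How much the copies share can be seen in the 4 fragment sequences that the part used here of the study's list of E13.5 fragments gives for CysGCA genes. They belong to 3 copies on chromosome 11. The study cites the list for fragments whose abundance differed between genotypes, which was not examined here. The sequences are printed 5′ to 3′, with the bases of the anticodon in capitals.
chr11.trna1433-CysGCA: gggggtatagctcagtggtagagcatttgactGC
chr11.trna791-CysGCA: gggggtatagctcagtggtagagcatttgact
chr11.trna1432-CysGCA: tgactGCAgatcaagaggtccccggtt
chr11.trna1433-CysGCA: tgactGCAgatcaagaggtccccgg
The fragments of 34 and 32 nt start with the same bases, and the one listed for chr11.trna791 ends just before the anticodon. The longer one, for chr11.trna1433, ends after 2 of the 3 anticodon bases. The inner fragments of 27 and 25 nt hold the whole anticodon from position 6 to 8, and the shorter is the start of the longer although they are listed for different copies. Thus 2 of the 4 fragments are the first bases of another one, and such shared stretches are listed for single copies although unique matches were kept. How they were assigned was not resolved here. No full-length gene sequence of the files' build was used here.

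CysGCA was the family with the most genes, 13.2% of all 433, but it received 599 of the 62885 counts over the 11 samples, or 0.953%, and ranked 34th of 53 families. Of its 57 genes, 14 (24.6%) had at least 1 count in any sample and 43 had none. Among the 376 other tRNA genes, 301 (80.1%) had a count. A copy without any count was held by this depth to at most 3 counts, 0.501% of the CysGCA counts, which covers counting error only. The families with the next most genes had counts on a larger share of their copies. LysCTT had counts on 11 of 19 genes, AlaAGC on 13 of 19 and MetCAT on 14 of 18.

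The counts were placed on a few chromosomes very unequally, as the map of counts along chromosomes 6 and 11 shows. Chromosome 11 holds 5 copies, all with counts, and 547 of the 599 counts (91.3%) lay on them. Between 86.8% and 94.6% of the CysGCA counts of each sample were on chromosome 11. Chromosome 6 holds 49 copies within 385 kb, of which 6 had counts, with 36 counts in all (6.01%). Of these 36 counts, 31 belonged to chr6.trna157-CysGCA, which lies 155 kb from the next copy, at 47928976 to 47929087. The other 48 copies on chromosome 6 had 5 counts in all, from 5 copies with 1 read each. The cluster of 2 copies on chromosome 9 had 3 counts, 2 of them on chr9.trna593-CysGCA (104306366 to 104306477). The only copy on chromosome 17, chr17.trna458-CysGCA (71948591 to 71948702), had 13. The dense part of the chromosome 6 cluster was thus nearly empty in these counts, while its outlying copy and every copy outside chromosome 6 were counted.

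**Figure D1:**
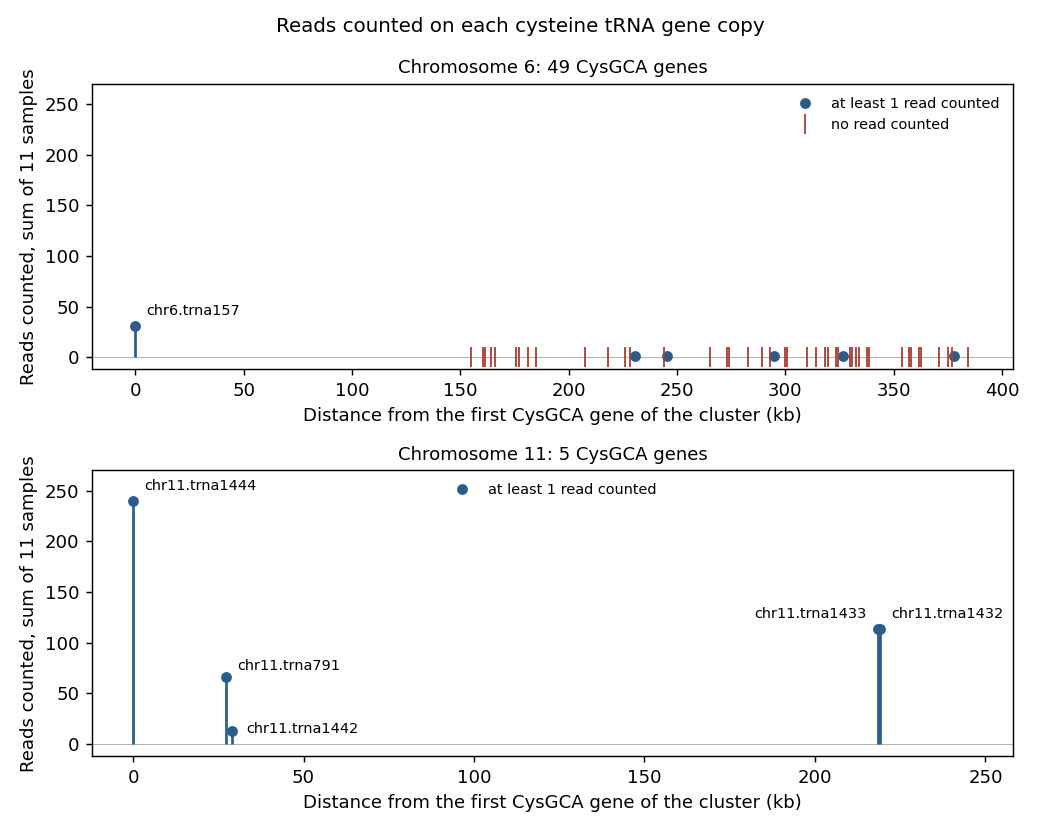
Counts on each CysGCA gene copy of chromosomes 6 (49 copies) and 11 (5 copies), summed over 11 samples, against the distance in kb from the first copy. Red ticks are copies without counts. The highest point is chr11.trna1444 with 240 counts, and on chromosome 6 only chr6.trna157 exceeds 1 count.

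The top 5 copies held 94.3% of the CysGCA counts. chr11.trna1444-CysGCA (chromosome 11, 97631123 to 97631234, minus strand) was the copy with the most CysGCA counts in all 11 samples, with 240 counts (40.1%). chr11.trna1433-CysGCA (97849540 to 97849651) and chr11.trna1432-CysGCA (97850217 to 97850328) start 677 bases apart on the minus strand and had 114 counts each. chr11.trna791-CysGCA (97658366 to 97658477, plus strand) had 66 and chr6.trna157-CysGCA had 31. These intervals include 20 bases on each side of the tRNA, which is 72 nt long in 56 of the 57 copies. They do not overlap, and the counting did not use strand. The fifth chromosome 11 copy, chr11.trna1442-CysGCA (97660200 to 97660311), had 13 counts. Outside the top 5, 9 copies shared 34 counts, and 6 of the 14 counted copies rested on a single read. A sample had counts on 6 to 9 copies.

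How uneven the copies are was expressed as an effective number of copies, the inverse of the chance that 2 reads drawn from the family lie on the same copy. It was 4.04 for CysGCA over all samples, against 57 genes. It was 1.79 for LysCTT, where chr13.trna103-LysCTT alone held 74.0% of the counts, 3.28 for AlaAGC and 4.73 for MetCAT. Of these 4 families LysCTT had the fewest effective copies and MetCAT the most. The gap between genes and effective copies was largest for CysGCA, but its 57 genes against 18 or 19 set that in advance. These values are descriptions without a test.

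The sum over the family was compared between genotypes at E18.5 to see whether the amount of counted CysGCA differs without NSUN2. In wild-type brains the 4 samples had 56, 79, 58 and 58 CysGCA counts, and in Nsun2-/- brains 34, 44, 53 and 31. The total tRNA counts were also lower in Nsun2-/- samples, 4011 to 5027 against 5387 to 5924. As a share of all tRNA counts, CysGCA made up 1.11% ± 0.17 in the wild-type group and 0.881% ± 0.139 in the Nsun2-/- group (SD, 4 samples each), and the shares overlapped. With edgeR's quasi-likelihood test over 45 families, the log2 fold change was -0.27 (standard error 0.15, 95% interval -0.59 to 0.05, edgeR adjusted p = 0.33). The difference did not pass the test, and its interval includes both no change and a decrease of 0.59 on the log2 scale. Of all families, 13.3% passed at E18.5.

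**Figure D2:**
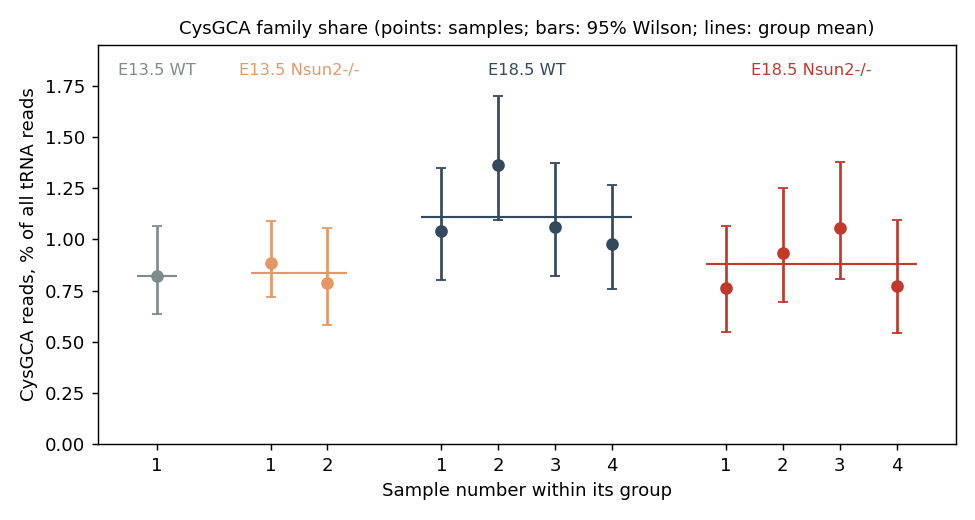
CysGCA counts as a percentage of all tRNA counts (y axis) in each of the 11 samples (x axis), by stage and genotype. Bars are 95% Wilson intervals, lines are group means. The wild-type samples at E18.5 lie between 0.979% and 1.36%, and the Nsun2-/- samples between 0.765% and 1.05%.

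A single copy, chr11.trna1444, had enough counts for a test at E18.5. The other 56 copies were below the filter at this stage, which required about 10 counts in at least as many samples as a genotype group held, here 4. chr11.trna1444 had 26, 38, 27 and 23 counts in wild-type and 14, 20, 19 and 12 in Nsun2-/- samples. Every Nsun2-/- sample was lower in raw counts, but after TMM normalization, which scales samples by the bulk of their genes, the genotypes overlapped, with 38.2 to 66.2 TMM-scaled counts per 10000 in wild-type and 30.2 to 42.8 in Nsun2-/- samples. The genotypes did not overlap for 15.1% of the 106 genes tested. The log2 fold change was -0.48 (standard error 0.23, edgeR adjusted p = 0.27, unadjusted p = 0.0504), so no CysGCA gene was called, against 9.43% of all genes. DESeq2 also called none. The unadjusted p of chr11.trna1444 was below 0.05 in 5 other edgeR fits with no sample left out, from 0.015 with upper-quartile scaling to 0.047 without the filter, with edgeR adjusted p-values of 0.098 to 0.47. When samples were left out in turn, its log2 fold change lay between -0.59 and -0.30 (edgeR adjusted p = 0.23 to 0.66), the latter without wild-type sample 2. Without chr11.trna1444, the family sum differed by -0.13 (edgeR adjusted p = 0.71).

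The remaining copies did not pass the filter and are given as counts, with alternative fits for some of them. At E18.5, chr11.trna1432 had 15, 20, 8 and 11 counts in wild-type and 5, 6, 9 and 8 in Nsun2-/- samples. chr11.trna791 had 5, 10, 5 and 10 in wild-type and 3, 5, 4 and 5 in Nsun2-/- samples. Both copies overlapped between genotypes. chr11.trna1433 ranged from 5 to 9 counts in wild-type and from 2 to 14 in Nsun2-/- samples. chr6.trna157 had 1 to 4 counts in either genotype. chr11.trna1442 had 1 to 3 in wild-type and 0 to 1 in Nsun2-/- samples. Scaled for the totals, without the filter, the log2 fold change was -0.60 for chr11.trna1432 (standard error 0.34, edgeR adjusted p = 0.66), -0.47 for chr11.trna791 (standard error 0.43, edgeR adjusted p = 0.84) and 0.52 for chr11.trna1433 (standard error 0.38, edgeR adjusted p = 0.80). With all 11 samples in 1 fit it was -0.60 for chr11.trna1432 (edgeR adjusted p = 0.47) and 0.51 for chr11.trna1433 (edgeR adjusted p = 0.67). When 1 sample was left out, the fits that held chr11.trna1432 gave it -0.74 to -0.47 (edgeR adjusted p = 0.24 to 0.62). Its unadjusted edgeR p was 0.046 without wild-type sample 3 and above 0.05 in the other such fits. None of these copies was called.

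At E13.5, the wild-type sample had 56 CysGCA counts of 6811 in all (0.822%, 95% Wilson interval 0.634% to 1.07%). The Nsun2-/- samples had 87 of 9827 (0.885%) and 43 of 5481 (0.785%), on either side of it. With 1 wild-type sample, the errors and p-values below assume that it varies like the samples of the other groups. The log2 fold change of the family was 0.11 (standard error 0.26, 95% interval -0.42 to 0.64, edgeR adjusted p = 0.89). Of the 47 families and 155 genes tested at this stage, 0% passed (edgeR, adjusted p-values below 0.05), while 7 families and 12 genes had unadjusted p-values below 0.05, none of them CysGCA. Among the 3 copies tested, chr11.trna1444 had 20 counts in the wild-type and 25 and 16 in the Nsun2-/- samples, and its fitted difference was -0.13 on the log2 scale (standard error 0.40, edgeR adjusted p = 0.92). chr11.trna1433 had -0.18 (standard error 0.50, edgeR adjusted p = 0.92). chr11.trna1432, with 8 counts against 19 and 5, had 0.38 (standard error 0.63, edgeR adjusted p = 0.91). None of the 3 passed. Among copies below the filter, chr11.trna791 had 2 counts in the wild-type and 13 and 4 in the Nsun2-/- samples, and chr6.trna157 had 3 against 3 and 1. Without the filter their log2 fold changes were 1.89 and -0.65, each resting on 1 wild-type sample with few counts. The difference between genotypes was not shown to differ between stages for the family, with -0.40 (standard error 0.30, edgeR adjusted p = 0.65). In that test 4.26% of families passed.

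Between the stages, the family sum did not pass the test either. The log2 fold change of E18.5 over E13.5, averaged over genotypes, was 0.20 (standard error 0.15, 95% interval -0.11 to 0.51, edgeR adjusted p = 0.32), where 40.4% of families passed. It was 0.00 in Nsun2-/- samples alone (standard error 0.19, edgeR adjusted p = 0.99) and 0.40 in wild-type samples, which rest on 1 sample at E13.5 (standard error 0.23, edgeR adjusted p = 0.21).

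Single copies were also compared between stages, and their shares of the family are plotted by sample. Of the 3 copies tested over the 11 samples, chr11.trna1433 was lower at E18.5. It had 18 counts in the wild-type and 24 and 12 in the Nsun2-/- samples at E13.5. At E18.5 it had 6, 5, 9 and 8 in wild-type and 8, 8, 14 and 2 in Nsun2-/- samples. The filter of this fit required about 10 counts in 1 sample. Each E13.5 sample reached this, and at E18.5 only the sample with 14 counts did. The log2 fold change was -0.87 (standard error 0.32, edgeR adjusted p = 0.039). This is 1 of 3 tested copies, against 29% of all 155 genes, of which 18 of 45 called were higher at E18.5 (23 of 41 with library size only), and the TMM-scaled counts overlapped between stages, where 20.6% of genes did not. With library size only, the adjusted p was 0.079, with DESeq2 it was 0.20, and when samples were left out in turn it lay between 0.019 and 0.12 and was above 0.05 for 7 of the 10 samples that could be left out. Of the copies that did not pass, chr11.trna1444 had 0.46 (standard error 0.23, edgeR adjusted p = 0.13), and chr11.trna1432 had 0.38 (standard error 0.36, edgeR adjusted p = 0.46). The TMM median over all genes was -0.11 in this comparison and 0.0033 with library size only. For chr11.trna1433, the log2 fold change between stages was -0.53 in Nsun2-/- samples alone (standard error 0.40, edgeR adjusted p = 0.43). In wild-type samples, which rest on 1 sample at E13.5, it was -1.2. The average over genotypes gave that sample as much weight as both Nsun2-/- samples of E13.5 together.

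**Figure D3:**
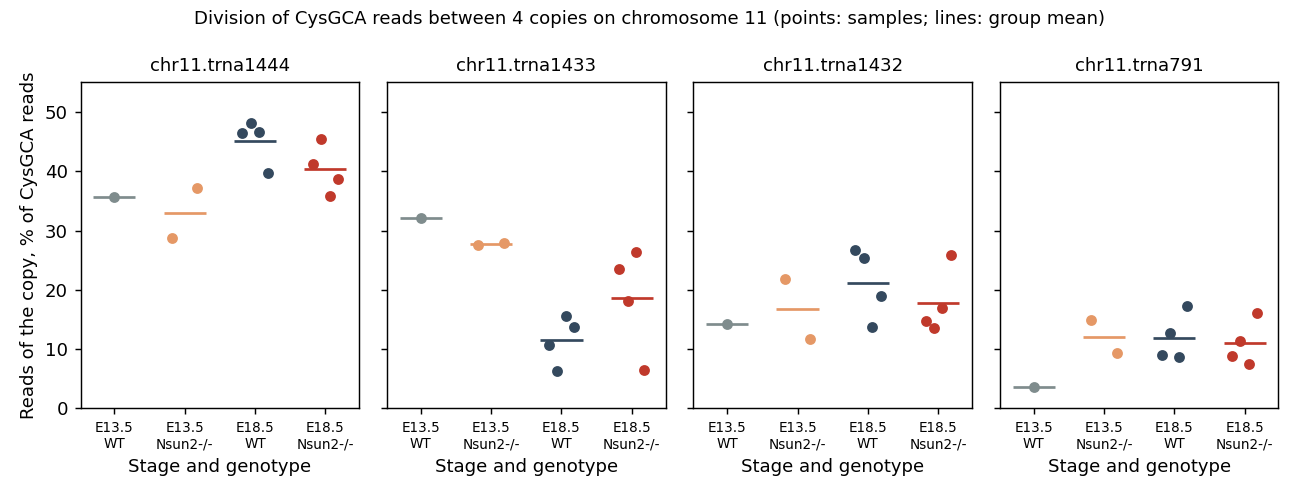
Share of each sample's CysGCA counts (y axis, percent) on 4 copies of chromosome 11, by stage and genotype (x axis). Points are samples and lines group means. chr11.trna1433 lies between 27.6% and 32.1% at E13.5 and between 6.33% and 26.4% at E18.5.

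The neighbours chr11.trna1433 and chr11.trna1432 had equal sums over all samples, but not equal counts in each. chr11.trna1433 had more counts than chr11.trna1432 in all 3 samples at E13.5, with 54 against 32 counts in all. At E18.5 it had more in 1 of 4 wild-type and 3 of 4 Nsun2-/- samples, with 28 against 54 counts in wild-type and 32 against 28 in Nsun2-/- brains. As a share of the CysGCA counts, chr11.trna1433 held 27.6% to 32.1% at E13.5 and 6.33% to 26.4% at E18.5, whereas its TMM-scaled counts overlapped between stages. This pair was singled out after its values were seen, and its division was not tested. Without chr11.trna1444 the pair tied as top copy, and chr11.trna1433 was the one taken. At E18.5 the mean share of chr11.trna1433 was 11.6% in wild-type and 18.6% in Nsun2-/- samples. That of chr11.trna1432 went the other way, with 21.2% and 17.8%. The sign of a top-copy difference without chr11.trna1444 thus depends on which copy of the pair is taken.

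The division of CysGCA counts in each sample was described by 4 values, each compared by two-sided exact permutation tests. At E18.5 the top copy, chr11.trna1444, held 45.2% ± 3.8 of the CysGCA counts in the wild-type and 40.3% ± 4.1 in the Nsun2-/- group (SD, 4 samples in each group throughout this comparison, exact permutation p = 0.143, adjusted over 4 values 0.29). The effective number of copies was 3.67 ± 0.46 and 4.20 ± 0.30 (exact permutation p = 0.143, adjusted 0.29). The chromosome 6 cluster held 5.59% ± 2.92 and 7.64% ± 2.96 (exact permutation p = 0.286, adjusted 0.38), and the difference of 2.05 percentage points lay between 0.78 and 3.53 when samples were left out in turn. Outside chr6.trna157, this cluster had 0 to 2 counts in any sample of either stage, so its share rested mainly on that copy. In an equal draw of 31 CysGCA counts, the size of the smallest sample, 6.18 ± 0.52 copies were expected in the wild-type and 6.49 ± 1.04 in the Nsun2-/- group (exact permutation p = 0.686, adjusted 0.69). None of the 4 values passed the test, and 4 against 4 samples cannot give a p below 0.0286.

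Between stages, genotypes were pooled, with 1 wild-type and 2 Nsun2-/- samples at E13.5 and 4 of each at E18.5. So pooled, chr11.trna1444 held 33.9% ± 4.5 of the CysGCA counts at E13.5 (SD, n = 3) and 42.7% ± 4.5 at E18.5 (SD, n = 8, exact permutation test, p = 0.024). This did not hold after adjustment over the 4 values (adjusted p = 0.097), nor in Nsun2-/- samples alone, with 33.0% and 40.3% (n = 2 and 4, exact permutation test, p = 0.27, where the smallest possible is 0.133). The effective number of copies was 4.33 ± 0.21 at E13.5 and 3.94 ± 0.46 at E18.5 (SD, n = 3 and 8, exact permutation test, p = 0.21, adjusted p = 0.41). The share of the chromosome 6 cluster was 4.90% ± 3.53 and 6.62% ± 2.93 (SD, n = 3 and 8, exact permutation test, p = 0.48, adjusted p = 0.65), a difference of 1.72 percentage points that lay between 0.43 and 3.73 when samples were left out. The copies expected in an equal draw were 6.50 ± 0.76 and 6.34 ± 0.78 (SD, n = 3 and 8, exact permutation test, p = 0.73, adjusted p = 0.73).

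**Figure D4:**
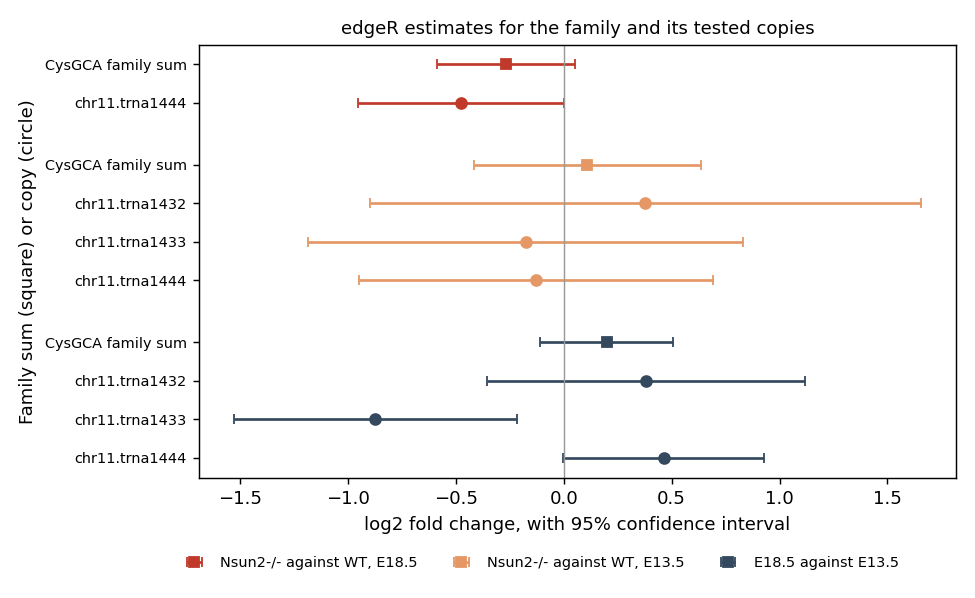
log2 fold changes (x axis) of the CysGCA family sum (squares) and of the copies that could be tested (circles) with 95% confidence intervals, for 3 comparisons by edgeR. All intervals include 0 except that of chr11.trna1433 between stages, at -0.87.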

How the data were processed

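Small RNAs of 20 to 200 nt were sequenced, and the 11 samples used here were grouped by the labels. The study describes 4 independent biological replicates per genotype, while the samples used at E13.5 were 1 wild-type and 2 Nsun2-/-. The authors trimmed adapters, aligned reads with bowtie, keeping unique matches, realigned reads after removal of CCA ends, and deposited raw counts per tRNA gene (featureCounts 1.4.4). The methods name GRCm38/mm10 and the file header mm9. Counts per gene and per family were tested over all genes or families with edgeR 4.0.16 in R 4.3.3 (TMM, quasi-likelihood test, filterByExpr with a minimum of 10, Benjamini-Hochberg adjustment, tested on simulated data), with 8 samples at E18.5 and otherwise all 11 in 4 groups. The minimum had to be reached in as many samples as the smallest group held, 4 at E18.5 and 1 in the fits of all 11. Exact permutation tests served for single values (scipy 1.17.1). Totals were 4011 to 9827 counts. Alternatives included DESeq2 1.42.0. Members and lists were chosen with earlier results of these data known. Named copies were the 5 with the most counts, those with adjusted p-values below 0.05, the top copy of each cluster of at least 2 copies (gaps up to 1 Mb) and those with printed fragments, while chr17.trna458 and chr11.trna1442 were added after their values were seen. At E18.5, chi-square tests did not separate the counts of Nsun2-/- samples 1 and 2 (p = 0.93), of samples 2 and 3 (p = 0.86), or of wild-type samples 3 and 4 (p = 0.41). A further 3 pairs of that stage had chi-square p-values of 0.087 to 0.19. The remaining pairs within a genotype were separated. Chi-square p-values were 0.028, 0.046, 1.2e-06 and 4.8e-07 for wild-type samples 1 and 2, 1 and 3, 2 and 3, and 2 and 4. They were 0.00034 and 0.0067 for Nsun2-/- sample 4 against samples 1 and 2. This test takes reads as independent. The samples were kept apart as separately labelled samples.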

Additional observations from a re-analysis of the deposited data

Results flagged for a closer look

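Among 12 values examined in both genotypes at E18.5, 2 samples stood far from the other 3 of their group by Dixon's ratio, where chance gives about 1 group in 20. In Nsun2-/- sample 4, the chromosome 6 cluster held 3.23% of the CysGCA counts, against 8.82% to 9.43% in the others, which is 1 count of 31. In wild-type sample 4, chr17.trna458-CysGCA was at 0 TMM-scaled counts per 10000, against 1.74 to 1.79 in the others, which had 1 read each.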

How the results depend on the processing

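The family sum between genotypes was never called. At E18.5 it kept its direction, with -0.28 (edgeR adjusted p = 0.25) and no CysGCA gene called (3 of all genes, against 10) with the replicate number as a block. Same-numbered samples deviated together with correlations of 0.25, 0.11, 0.20 and -0.10, and 2 of 4 Nsun2-/- samples correlated best with their own number, so the numbers were not taken as pairs. Adding Nsun2-/- samples 1 and 2 together, chosen after seeing the data, gave -0.31 (edgeR adjusted p = 0.26). When samples were left out in turn, the log2 fold change lay between -0.42 and -0.14 at E18.5 and between 0.031 and 0.16 at E13.5. The family difference between stages became -0.0016 in Nsun2-/- samples alone and -0.010 without chr11.trna1444. For CysGCA genes between stages, 0 instead of 1 were called with library size only, upper-quartile scaling, DESeq2, no filter and Nsun2-/- samples only, and between 0 and 1 when samples were left out. The call of chr11.trna1433 was lost without wild-type sample 1, 2 or 4 or Nsun2-/- sample 2 or 4 of E18.5, or either Nsun2-/- sample of E13.5 (edgeR adjusted p = 0.054 to 0.12), and chr11.trna1444 was called without wild-type sample 4 of E18.5 (0.65, edgeR adjusted p = 0.029). Without chr11.trna1444, the share of chr11.trna1433, tied as top copy with chr11.trna1432, differed by 10.2 percentage points (Nsun2-/- from wild-type) and -18.2 (E18.5 from E13.5). The stage difference then was 0.58 in effective copies and 0.080 in copies of an equal draw. With clusters joined at gaps up to 0.1 Mb, the share of the largest cluster differed by -0.28 between genotypes and -0.58 between stages. That cluster no longer held chr6.trna157 and had 0 to 2 counts per sample. Leaving out 1 sample moved the copies of an equal draw between -0.19 and 0.58 for genotypes, and between -0.57 and 0.19 for stages. In single copies, chr11.trna1432 between stages was -0.11 in Nsun2-/- samples alone. Between genotypes at E13.5, chr11.trna1444 lay between -0.23 and 0.063 and chr11.trna1432 between -0.29 and 0.69 when samples were left out, both with the sign changed without Nsun2-/- sample 1 of E13.5. The cause of these changes was not tested. The wild-type sample at E13.5 could not be left out of the fits between stages or at E13.5. With 31 to 87 CysGCA counts per sample, a copy at 0 in a sample could still hold up to 3.45% to 9.68% of that sample's CysGCA counts.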

Other observations

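The chromosome 6 copies are not evenly spaced. Of the 48 distances between neighbouring starts, 9 lay between 974 and 1006 bases, and in all 9 both neighbours were on the same strand. The median distance was 3.49 kb, 21 copies were on the plus and 28 on the minus strand, and no other tRNA gene lay inside the cluster. RefSeq lists 56 CysGCA tRNA genes for GRCm38.p6, 48 of them on chromosome 6, 5 on chromosome 11, 2 on chromosome 9 and 1 on chromosome 17. The files thus hold 1 more on chromosome 6, and 0 of their 57 intervals overlap a RefSeq CysGCA gene at the same position.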
